A study of Gallus gallus with 25 samples.

Results

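Contact domains of the intermediate chromosomes 6, 7, 8, 9 and 10 were compared in the growing chicken oocyte, in 4 pooled single-nucleus Hi-C maps. The members were chosen by chromosome alone, as every domain on chromosomes 6 to 10 in the automatic domain list of each map. This gave 859 of 5602 domains, with 258 of 1546 in the LBC type 1 map, 239 of 1582 in LBC type 2, 166 of 1132 in post-LBC type 1 and 196 of 1342 in post-LBC type 2. A domain here is a stretch of a chromosome whose DNA contacts itself more often than it contacts the neighbouring stretches, and a boundary is a position where a domain starts or ends.

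During the growth of the bird oocyte the chromosomes take the lampbrush form, in which each bivalent is an axis of compact chromatin granules, the chromomeres, from which pairs of transcribed lateral loops extend. When growth goes on, the loops retract, transcription falls and the chromosomes condense. The chicken karyotype combines a few large macrochromosomes with many small, gene-dense microchromosomes, and chromosomes 6 to 10 lie between these groups in size. Hi-C measures which stretches of DNA lie close to each other, so that lists of domain boundaries can be compared along the same chromosome before and after the lampbrush form is lost.

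All 25 nuclei were isolated from wild type oocytes of healthy chickens, with no further treatment in any group. The lampbrush stage (LBC) is represented by oocytes 1 to 2 mm in diameter, with 14 nuclei of type 1 and 6 nuclei of type 2. The later stage (post-LBC) is represented by oocytes 4 to 7 mm in diameter, with 4 nuclei of type 1 and 1 nucleus of type 2. The type was assigned from the sequencing data after quality control, by the share of contacts between chromosomes, and the study calls the origin of the types unclear. It reports that LBC type 2 boundaries cluster close to those of chicken fibroblasts. It holds contamination by a somatic cell unlikely and an earlier stage, before the lampbrush form, more plausible. For post-LBC type 2 it proposes a later stage than type 1, and its main domain analyses used type 1 only. The type 2 comparison of LBC with post-LBC may therefore not span the same transition as type 1. The nuclei of a group were merged before domains were called, so the lists hold 1 set of domains per group and no value of a single nucleus, and the post-LBC type 2 list describes 1 cell. No difference below has a replicate check, and differences between maps carry no test over nuclei or animals. Intervals are exact 95% binomial intervals for shares and order-statistic intervals for medians, and both cover counting error only. The number of contacts behind a boundary is not in the lists, and the stage cannot be told apart from the number of nuclei and contacts in its map or from the settings of domain calling.

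In the LBC type 1 map, domains of chromosomes 6 to 10 were between 208 and 1296 kb long with a median of 512 kb (95% interval 496 to 544 kb, n = 258). The LBC type 2 domains were between 224 and 1248 kb long with a median of 576 kb (544 to 608 kb, n = 239). In the post-LBC type 1 map the lengths were between 208 and 1824 kb with a median of 856 kb (784 to 944 kb, n = 166), and in the post-LBC type 2 map between 208 and 1712 kb with a median of 704 kb (624 to 752 kb, n = 196). The lengths of all maps overlapped widely, and both post-LBC medians were above both LBC medians. Domains longer than 1 Mb were rare in the automatic lists of the lampbrush stage, with 9 of 258 in type 1 (3.49%, and 10.1% over all chromosomes) and 6 of 239 in type 2 (2.51% and 4.80%). They made up 53 of 166 post-LBC type 1 domains (31.9% and 36.0%) and 36 of 196 post-LBC type 2 domains (18.4% and 19.5%). At the other end of the distribution, domains shorter than 400 kb were 27.1% of the LBC type 1 list, 13.4% of LBC type 2, 6.02% of post-LBC type 1 and 17.9% of post-LBC type 2. Over all chromosomes these shares were 18.7%, 11.5%, 7.07% and 16.2%. The post-LBC type 2 list thus had more long domains than either LBC list and also more short domains than post-LBC type 1, and the same held over all chromosomes. On all other chromosomes together, the medians of the 4 maps in the same order were 608, 608, 864 and 688 kb.

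**Figure D1:**
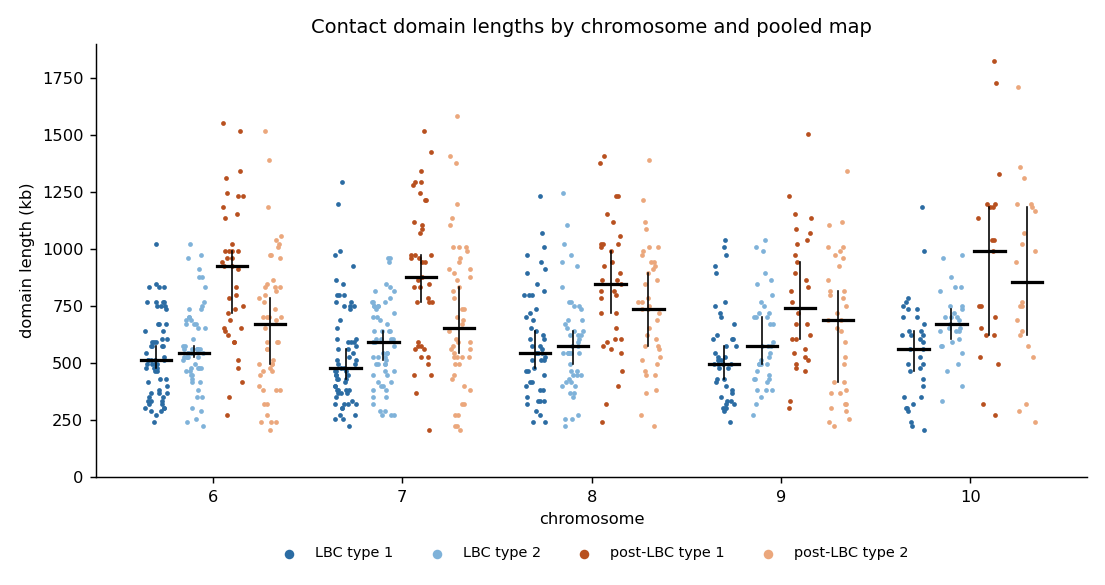
Length in kb of every domain (points) by chromosome and pooled map, with the median (thick line) and its 95% order-statistic interval (thin line). On each of chromosomes 6 to 10 the post-LBC type 1 median, between 744 and 992 kb, lies above the LBC type 1 median, between 480 and 560 kb.

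Medians of the 5 chromosomes were compared within each map. The LBC type 1 medians were 512, 480, 544, 496 and 560 kb on chromosomes 6, 7, 8, 9 and 10, and the LBC type 2 medians were 544, 592, 576, 576 and 672 kb in the same order. The post-LBC type 1 medians were 928, 880, 848, 744 and 992 kb, and the post-LBC type 2 medians were 672, 656, 736, 688 and 856 kb. Chromosome 10 had the highest median of the 5 chromosomes in every automatic list, but its lists were also the shortest, with 35, 29, 21 and 22 domains, and its intervals overlapped those of the other chromosomes in each map except for LBC type 2. There, the interval of 608 to 736 kb lay above that of chromosome 6, 528 to 576 kb. Chromosome 9 had the lowest median in the post-LBC type 1 map, with an interval of 608 to 944 kb that overlapped all others. In a list of LBC type 1 domains refined by hand, which is described further on, the order was another, with medians of 1088, 942, 779, 816 and 728 kb on chromosomes 6 to 10.

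The longest domains were listed after the lampbrush stage. On chromosome 10 the post-LBC type 1 domain from 14592001 to 16416000 (ASM2420605v2, as all coordinates here) was 1824 kb long, and the post-LBC type 2 domain from 5248001 to 6960000 was 1712 kb long. The longest LBC type 1 domain was on chromosome 7 from 31344001 to 32640000, with 1296 kb, and the longest LBC type 2 domain was on chromosome 8 from 17136001 to 18384000, with 1248 kb. The shortest domain of each list was close to the limit of 200 kb above which the domains of all 4 lists lie. In LBC type 1 it was on chromosome 10 from 8624001 to 8832000 (208 kb), and in post-LBC type 1 it was on chromosome 7 from 34608001 to 34816000 (208 kb).

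The number of type 1 domains on chromosomes 6 to 10 fell by 35.7% from LBC to post-LBC, from 258 to 166, while it fell by 25% on all other chromosomes. The median length was 1.67 times greater at the later stage, and 1.42 times greater on all other chromosomes. Dividing the opposite limits of the 95% intervals of both medians gave ranges of 1.44 to 1.90 and 1.33 to 1.51. Such a range is wider than a 95% interval of the ratio. These ranges overlapped, and the difference between the 2 groups of chromosomes was not tested. The ratio was 1.81, 1.83, 1.56 and 1.77 on chromosomes 6, 7, 8 and 10 and lowest on chromosome 9, where the median went from 496 to 744 kb, so each chromosome changed in the same direction. For chromosome 10, with 35 and 21 domains, the range of 0.975 to 2.55 included 1, whereas for the others it began at 1.06 or higher. In type 2 oocytes the change was smaller. The number of domains fell by 18.0%, from 239 to 196, against 14.7% on all other chromosomes, and the median ratio was 1.22 (1.03 to 1.38) against 1.13 (1.08 to 1.22). The type 2 ratios of single chromosomes were between 1.11 and 1.28, and the range of each of them included 1.

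The size of this change depended on which LBC type 1 list was used. The authors also refined the LBC type 1 domains by hand, and this manual list contains 148 domains on chromosomes 6 to 10, in place of 258, with a median of 852 kb, of which 56 (37.8%) were longer than 1 Mb. Set against the manual list, the post-LBC type 1 median was 1.00 times as great. The LBC and post-LBC lists compared above were both automatic, but the calling settings of the merged maps are not given in the sources used here. The manual list was refined by hand after automatic annotation, and no manual list of the post-LBC stage was used here. The part of the refinement in this value was not tested.

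The first and the last listed domain of a chromosome, called end domains here, were compared with the interior domains, since chromosome ends can differ in structure from the arms. End domains need not reach the end of the chromosome. In LBC type 1 the first one began at 1088001 on chromosome 6 and at 1984001 on chromosome 10. The comparison is therefore one of outermost listed domains. With 10 end domains per map, no difference was resolved. In LBC type 1 the end domains were between 240 and 1024 kb long with a median of 536 kb (432 to 832 kb), against 512 kb for 248 interior domains (496 to 544 kb). In LBC type 2 the medians were 528 kb (400 to 768 kb) and 576 kb (544 to 608 kb). In post-LBC type 1 they were 912 kb (528 to 1120 kb) and 856 kb (784 to 944 kb), and in post-LBC type 2 they were 784 kb (560 to 1008 kb) and 688 kb (608 to 752 kb). The intervals of end and interior domains overlapped in all 4 maps, and the ratio of the medians was on both sides of 1, with 1.05, 0.917, 1.07 and 1.14 in the same order. Of the 10 end domains, 6, 4, 6 and 6 were longer than the interior median of their own chromosome. Against the interior median of all 5 chromosomes together, the counts were 5, 4, 5 and 7 of 10. On all other chromosomes 13, 16, 13 and 23 of 46 end domains were above their pooled interior median. The ratios of the medians there were 0.855, 0.934, 0.824 and 1.01, and the difference from chromosomes 6 to 10 was not tested.

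**Figure D2:**
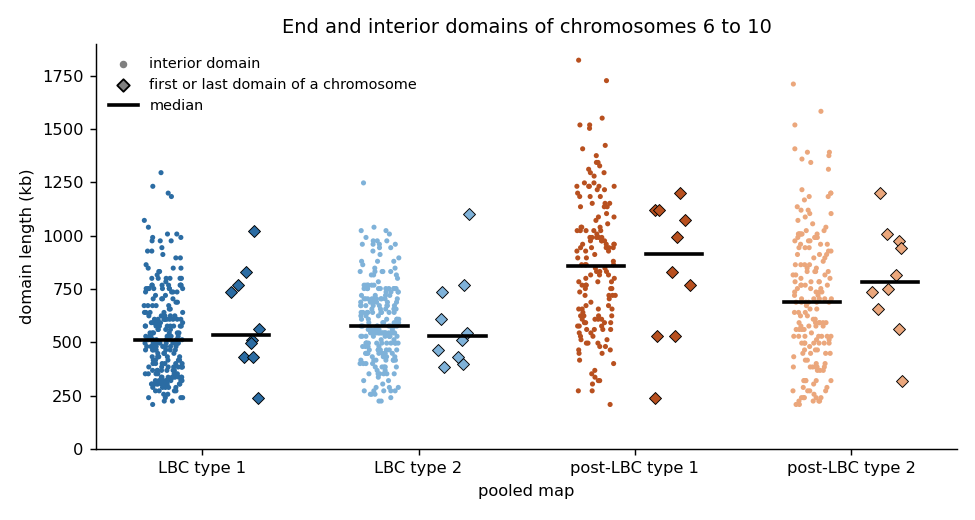
Length in kb of interior domains (circles) and of the first and last domain of each of the 5 chromosomes (diamonds) in the 4 pooled maps, with the median of each group as a line. The 10 end domains of each map lie within the range of the interior domains.

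Single end domains behaved differently from each other. The first domain of chromosome 7 was 432 kb long in LBC type 1 and 400 kb in LBC type 2, and at the later stage it was 1120 kb in type 1 and 560 kb in type 2. The last domain of chromosome 8 was the shortest of its chromosome in type 1, a tie in the LBC list, with 240 kb at both stages and the same start and end, from 29296001 to 29536000, whereas type 2 had 768 and 736 kb there. The last domain of chromosome 6 varied least, with 832, 608, 832 and 816 kb. Outermost boundaries lay close together in all maps, with a spread of 0 to 208 kb over the 10 ends, and at the right end of chromosome 8 and the left end of chromosome 9 the 4 maps gave the same coordinate. The inner borders of the end domains were spread over 224 to 928 kb, and at each of the 10 ends the inner border moved more than the outer one.

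To follow boundaries between stages, an LBC boundary was called kept if the post-LBC list of the same type had a boundary within 80 kb and lost otherwise. A post-LBC boundary with no LBC boundary of its type within 80 kb was called gained. Where 2 domains adjoin, their common position entered the counts a single time. The same counts over all 28 chromosomes of the automatic lists served as the background, together with the share of the length of chromosomes 6 to 10 that lies within 80 kb of a boundary of the other list.

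In type 1 oocytes, 158 of 282 LBC boundaries on chromosomes 6 to 10 were kept, 56.0% (50.0% to 61.9%), and 124 were lost. Over all chromosomes 54.9% were kept, and 19.0% of the length of chromosomes 6 to 10 lay within 80 kb of a post-LBC type 1 boundary. The share kept was therefore close to that of the genome and 2.96 times the share of length. Conversely, 24 of 182 post-LBC type 1 boundaries were gained, 13.2% (8.64% to 19.0%), whereas 24.7% were gained over all chromosomes and 26.7% (24.1% to 29.4%) on all other chromosomes. At this tolerance, most boundaries after the lampbrush stage thus had an earlier counterpart on these chromosomes, with 124 boundaries lost and 24 gained. The share gained was close to the 15.4% (11.2% to 20.4%) of chromosomes 11 to 28 and below the 28.6% of chromosomes 1 to 5 and the 44.2% of Z, and these differences were not tested. However, 29.9% of the length of chromosomes 6 to 10 lay within 80 kb of an LBC type 1 boundary, against 25.0% on all other chromosomes. On Z it was 19.1%. The share of post-LBC type 1 boundaries with an LBC counterpart was 2.90 times this share of length. That ratio was similar elsewhere, with 2.93 on all other chromosomes and 2.92 on Z. The share gained moved with the tolerance, to 22.5% at 20 kb and 6.04% at 160 kb.

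The same pattern appeared on each chromosome. On chromosome 6, 39 boundaries were kept, 34 lost and 6 gained, and on chromosome 7 the counts were 36, 34 and 7. On chromosome 8 there were 34 kept, 21 lost and 6 gained, on chromosome 9 there were 28, 20 and 4, and on chromosome 10 there were 21, 15 and 1. The share kept was between 51.4% on chromosome 7 and 61.8% on chromosome 8, with overlapping intervals. The only gained boundary of chromosome 10 was at 21536000, the outermost boundary of the list, which LBC type 2 placed at the same coordinate.

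In type 2 oocytes, gains were nearly as frequent as losses. Of 259 LBC type 2 boundaries, 103 were kept, 39.8% (33.8% to 46.0%), and 156 were lost, and over all chromosomes 39.7% were kept. Of 226 post-LBC type 2 boundaries, 124 were gained, 54.9% (48.1% to 61.5%), against 55.5% over all chromosomes. Both shares were close to the background, and the share kept was 1.65 times the 24.1% of length within 80 kb of a post-LBC type 2 boundary. On chromosomes 6 to 10 in order, 30, 22, 23, 15 and 13 boundaries were kept, 38, 43, 31, 27 and 17 were lost, and 32, 34, 22, 24 and 12 were gained. More boundaries were lost than kept on all 5 chromosomes, which in type 1 was the case on none.

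**Figure D3:**
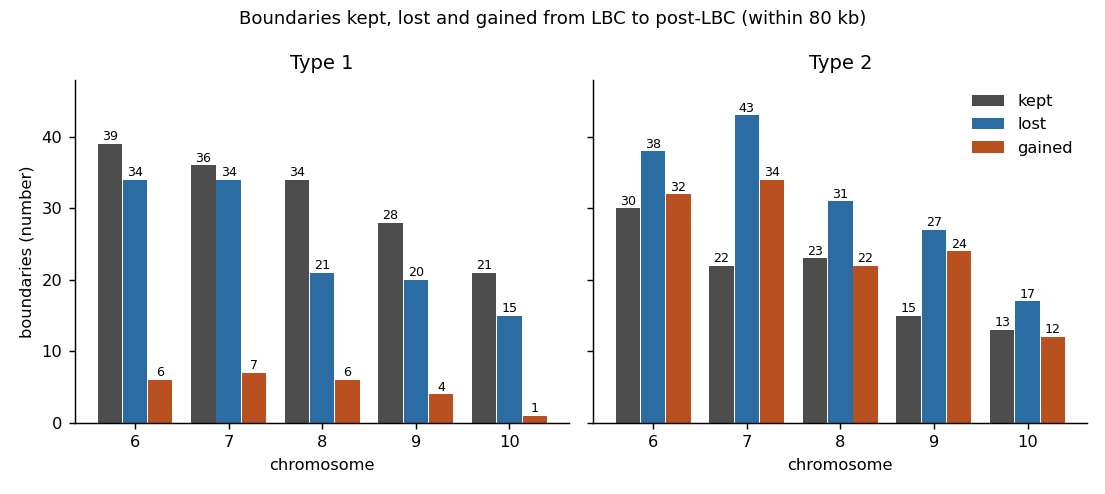
Number of boundaries kept and lost from the LBC list and gained in the post-LBC list on each chromosome, within 80 kb, for type 1 (left) and type 2 (right) oocytes. In type 1 the gained boundaries number 1 to 7 per chromosome, and in type 2 they number 12 to 34.

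Kept boundaries of type 1 were placed precisely. Of the 158, 101 had the same coordinate at both stages, 40 were shifted by 16 kb, the spacing of the coordinate grid, and 9 by 32 kb, which left 8 with a shift of 64 or 80 kb. In type 2 only 29 of 103 kept boundaries had the same coordinate, 31 were shifted by 16 kb and the other 43 by 32 to 80 kb. Over all chromosomes, 513 of 939 kept type 1 boundaries and 192 of 684 kept type 2 boundaries had the same coordinate. As a share of all LBC boundaries this was 30% and 11.1%, against 35.8% and 11.2% on chromosomes 6 to 10. Lost type 1 boundaries lay a median of 336 kb from the nearest post-LBC boundary, and 93 of 124 were more than 240 kb away. Gained type 1 boundaries lay a median of 160 kb from the nearest LBC boundary. In type 2 these medians were 256 kb for the lost and 208 kb for the gained boundaries. By definition lost and gained boundaries lie more than 80 kb from the other list. These distances also depend on how densely that list is filled, and they were not compared with a background.

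Of the 24 boundaries gained in type 1, 12 had a counterpart in the LBC type 2 list, 12 in the post-LBC type 2 list and 12 in the manual list of LBC type 1, and 4 were in none of these. Of all 182 post-LBC type 1 boundaries on these chromosomes, 59.9%, 68.7% and 80.8% had a counterpart in these lists, in the same order. Counts of gained boundaries by list are not given for the other chromosomes. The 4 gained boundaries in none of the lists were at 7936000 and 34544000 on chromosome 6 and at 4752000 and 9232000 on chromosome 7. They were chosen for naming after their values were seen. A post-LBC type 1 boundary on chromosomes 6 to 10 was found in no other automatic list in 8 of 182 cases, 4.40%, against 7.48% on chromosomes 11 to 28 and 10.8% on chromosomes 1 to 5. For comparison, 51 of 282 LBC type 1 boundaries (18.1%), 79 of 259 LBC type 2 boundaries (30.5%) and 65 of 226 post-LBC type 2 boundaries (28.8%) were in their own list only, near the 18.7%, 32.3% and 28.5% over all chromosomes.

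Between the types at the same stage, 157 of 282 LBC type 1 boundaries had an LBC type 2 boundary within 80 kb, 55.7% (49.7% to 61.6%), with 53% over all chromosomes. After the lampbrush stage, 125 of 182 post-LBC type 1 boundaries had a post-LBC type 2 counterpart, 68.7% (61.4% to 75.3%), with 59.9% over all chromosomes. The share of length within 80 kb of the other list was 27.2% in the first comparison and 24.1% in the second. The post-LBC type 2 nucleus shared more of its 226 boundaries with LBC type 1 (133, 58.8%) and post-LBC type 1 (125, 55.3%) than with LBC type 2 (102, 45.1%). The order was the same over all chromosomes, with 53.3%, 49.1% and 44.5%, and the share of length within 80 kb of these lists was 29.8%, 19.0% and 27.2% on chromosomes 6 to 10. Its boundaries on chromosome 10 were most often shared with type 1, with 18 of 25 in LBC type 1 and 19 of 25 in post-LBC type 1, against 13 of 25 in LBC type 2.

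Boundaries found in every map were also counted. Of the 282 LBC type 1 boundaries, 69 had a counterpart within 80 kb in all 3 other maps, 24.5% (19.6% to 29.9%), against 23.4% over all chromosomes. These were 22 on chromosome 6, 10 on chromosome 7, 17 on chromosome 8, 9 on chromosome 9 and 11 on chromosome 10. The shares were 30.1%, 14.3%, 30.9%, 18.8% and 30.6%, with overlapping intervals. A further 80 boundaries were in 3 maps, 82 in 2 and 51 in LBC type 1 only.

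**Figure D4:**
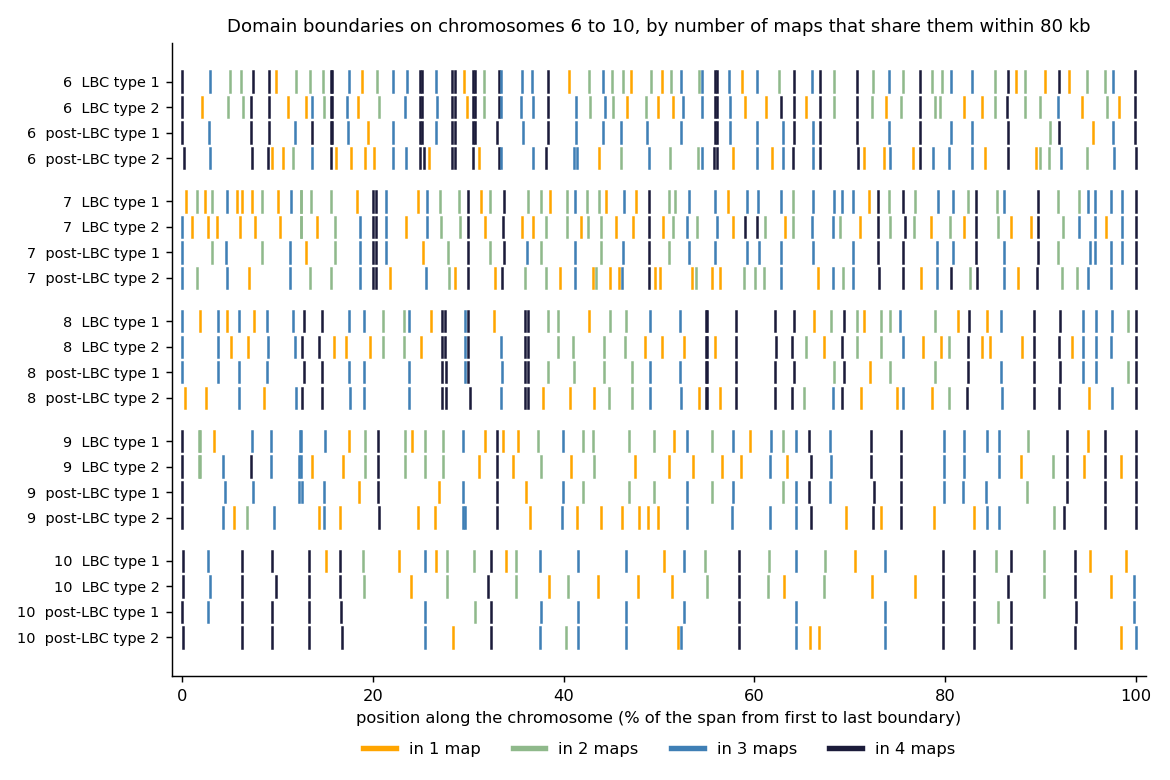
Boundaries of the 4 pooled maps along chromosomes 6 to 10, drawn as percent of the span from the first to the last boundary, and coloured by the number of maps that have a boundary within 80 kb. In LBC type 1, 69 of 282 boundaries are in 4 maps, and in post-LBC type 1 only 8 of 182 are in 1 map.

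At 15 positions the boundary had the same coordinate in all 4 lists. Such positions were not counted on the other chromosomes, so whether this number is unusual is not known. Of these, 9 were outermost boundaries or the edges of gaps, stretches that the LBC type 1 list assigns to no domain, and the manual list had a boundary within 80 kb of 13. The other 6 were interior boundaries between adjoining domains, at 24528000 on chromosome 6, 17136000 on chromosome 8, 23152000 on chromosome 9, and 3184000, 4560000 and 13408000 on chromosome 10. All 6 were also in the manual list.

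Gaps made a small part of the picture. The lists had 19, 15, 11 and 25 gaps on chromosomes 6 to 10, between 16 and 320 kb long, and 9 gaps were shared by all 4 maps, of which 5 were on chromosome 6, 1 on chromosome 7 and 3 on chromosome 8. Post-LBC type 2 had 14 gaps of its own. Gap counts of the other chromosomes are not given here for comparison. Of the boundaries at gaps or at the outermost positions, more were kept than of the others, with 33 of 48 (68.8%, 53.7% to 81.3%) against 125 of 234 (53.4%, 46.8% to 59.9%) in type 1, where the intervals overlapped. In type 2 they did not, with 31 of 40 (77.5%, 61.5% to 89.2%) against 72 of 219 (32.9%, 26.7% to 39.5%). All other chromosomes that the manual list contains had a similar split, with 69.0% against 51.1% in type 1 and 69.3% against 33.7% in type 2. Away from gaps and ends, the type 2 share was therefore closer to the 24.1% of length near a post-LBC boundary.

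Whether an LBC boundary was kept went together with where else it was listed. LBC type 1 boundaries that the LBC type 2 list shared were kept in 96 of 157 cases, 61.1% (53.1% to 68.8%), and those it did not share in 62 of 125 cases, 49.6% (40.5% to 58.7%). These intervals overlapped. The manual list separated the boundaries far more. Of 148 LBC type 1 boundaries with a manual boundary within 80 kb, 134 were kept in post-LBC type 1, 90.5% (84.6% to 94.7%). Of the 134 without one, 24 were kept, 17.9% (11.8% to 25.5%), which is about the share of length near a post-LBC boundary. On all other chromosomes that the manual list contains, the shares were 80.4% and 30.3%. The manual list was refined from this map by the authors, and whether later stages were in view during the refinement is not stated in the sources used here, so the 2 lists may not be independent.

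The separation held on every chromosome. The share kept among boundaries also in the manual list was 93.1%, 91.4%, 85.3%, 92.6% and 91.3% on chromosomes 6 to 10, and among the others it was 27.3%, 11.4%, 23.8%, 14.3% and 0%. On chromosome 10 none of the 13 boundaries absent from the manual list was kept, which allows a share of up to 24.7% (exact upper limit). Boundaries in neither the manual nor the LBC type 2 list were kept in 8 of 65 cases, 12.3% (5.47% to 22.8%). On all other chromosomes in the manual list this was 99 of 384, 25.8% (21.5% to 30.5%). In type 2 oocytes the manual list of type 1 separated the LBC type 2 boundaries in the same direction, with 67 of 92 kept (72.8%, 62.6% to 81.6%) against 36 of 167 (21.6%, 15.6% to 28.6%), and with 64.9% against 28.8% on the other chromosomes. LBC type 2 boundaries shared with LBC type 1 were kept in 54.1% of 157 cases, and the others in 17.6% of 102, with 52.4% and 26.1% on the other chromosomes.

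**Figure D5:**
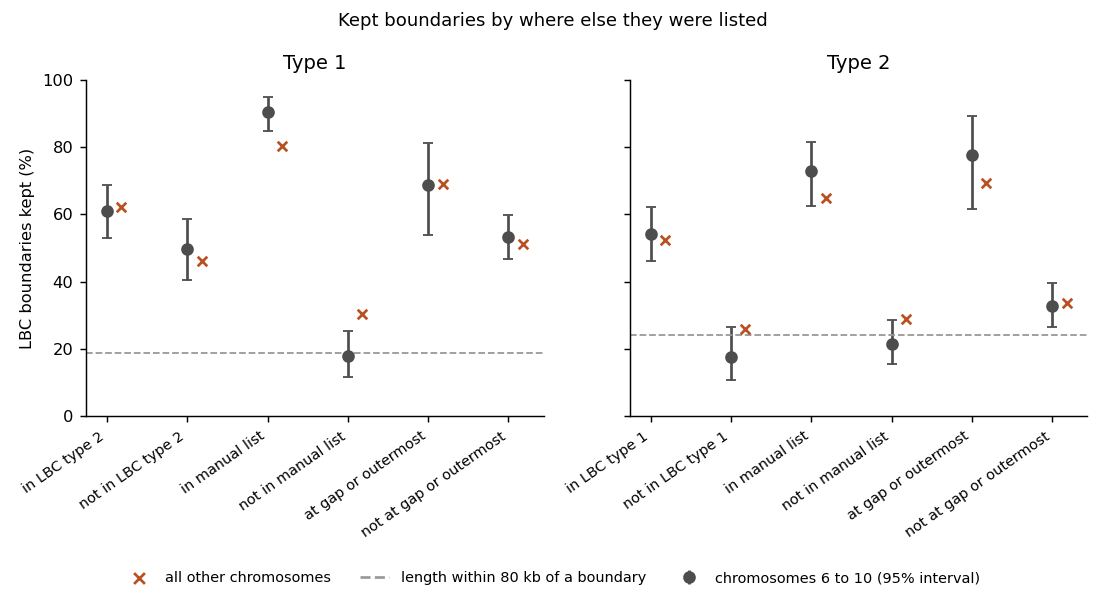
Share of LBC boundaries kept in the post-LBC map of the same type, in percent, by whether the boundary was also in the LBC list of the other type, in the manual list of LBC type 1, or at a gap or outermost position. Dots with bars are chromosomes 6 to 10 with exact 95% intervals, crosses all other chromosomes that the manual list contains, and dashed lines the share of length within 80 kb of a post-LBC boundary. Type 1 boundaries in the manual list sit at 90.5% and the others at 17.9%.

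Most boundaries of the manual LBC type 1 list on chromosomes 6 to 10 were also in the automatic post-LBC type 1 list, and the reverse. Of 186 manual boundaries, 167 had a post-LBC type 1 boundary within 80 kb, 89.8% (84.5% to 93.7%), against 73.9% (68.4% to 78.8%) on chromosomes 11 to 28, 79.6% on chromosomes 1 to 5 and 52.5% on Z. In the other direction, 147 of 182 post-LBC type 1 boundaries were in the manual list, 80.8% (74.3% to 86.2%), against 78.7% (73.0% to 83.7%) on chromosomes 11 to 28, 54.1% on chromosomes 1 to 5 and 37.2% on Z. The other 35 had no manual counterpart, 16 of them among the 45 boundaries of chromosome 6. The share of length within 80 kb of a manual boundary also differed. It was 17.2%, 22.4%, 12.7% and 10.4% on chromosomes 6 to 10, 11 to 28, 1 to 5 and Z. The share of post-LBC type 1 boundaries in the manual list was 4.68, 3.51, 4.27 and 3.59 times this share. For manual boundaries in the post-LBC type 1 list, the corresponding ratios were 4.70, 3.56, 4.30 and 3.43. The differences between groups of chromosomes were not tested. Of the 148 manual domains, 111 had both ends within 80 kb of the ends of a single post-LBC type 1 domain, 75%, against 46.6% on chromosomes 11 to 28, 41.9% on chromosomes 1 to 5 and 10.9% on Z. The share was lowest on chromosome 6, with 17 of 27 domains, and highest on chromosome 9, with 23 of 27. The manual list of chromosome 6 also contained the longest domain of these chromosomes, 5210 kb from 3630001 to 8840000. Of the 226 post-LBC type 2 boundaries, 114 were in the manual list, 50.4%, against 37.9% over all chromosomes and 55.5% on chromosomes 11 to 28. These shares were 2.94, 2.57 and 2.46 times the share of length within 80 kb of a manual boundary.

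Borders between neighbouring LBC domains that came to lie inside a post-LBC domain were counted. Such a border may have been lost by joining or moved by more than 80 kb. These cases were not separated, so the shares are not counts of joined domains. In type 1, 115 of 253 LBC borders on chromosomes 6 to 10 lay inside a post-LBC domain, more than 80 kb from its ends, 45.5% (39.2% to 51.8%), against 47.2% over all chromosomes. In type 2, 151 of 234 borders did so, 64.5% (58.0% to 70.7%), against 63.6%. With the manual list in place of the automatic one, 16 of 143 LBC type 1 borders did so, 11.2% (6.53% to 17.5%), against 22.1% over all chromosomes. In the automatic lists the loss of borders was thus at the level of the genome in both types.

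Each post-LBC type 1 domain contained the middle of 1, 2 or 3 LBC type 1 domains, in 88, 64 and 14 of 166 cases, and none contained 0 or more than 3. On all other chromosomes 32 of 966 contained none. The post-LBC domains with at least 2 were 47.0% of the total, against 39.0% on chromosomes 11 to 28 and 30.8% on chromosomes 1 to 5, and ranged from 36.7% on chromosome 9 to 56.4% on chromosome 6. In type 2, 21 of 196 post-LBC domains contained no LBC middle, 117 contained 1, 57 contained 2 and 1 contained 3. Over all chromosomes 168 of 1342 contained none, and those with at least 2 were 25.6%, against 29.6% on chromosomes 6 to 10. With the manual LBC type 1 list, 23 of 166 post-LBC type 1 domains held no LBC middle, against 328 of 1126 over all chromosomes in that list. On chromosomes 6 to 10, 5 held more than 1. That was 3.01%, against 4.53% over all chromosomes, so that the type 1 counts rest on the automatic list.

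Some of the post-LBC type 1 domains that held the most LBC domains on their chromosome are given next, with the manual LBC type 1 domains of the same places. The 1824 kb domain of chromosome 10 held LBC type 1 domains of 592, 608 and 624 kb and started and ended at the same coordinates as this run, and the manual list had a single domain of 1808 kb there. On chromosome 6 the domain from 28208001 to 29344000 (1136 kb) began and ended exactly where a run of LBC type 1 domains of 432, 352 and 352 kb did, and the manual list had a single domain of 1088 kb from 28256001 to 29344000. The domain from 2080001 to 3632000 on the same chromosome (1552 kb) held LBC domains of 736, 416 and 432 kb, and in the manual list it lay within the first domain of the chromosome, 2530 kb long. That stretch was also the only one where a post-LBC type 2 domain held 3 LBC type 2 domains, from 2128001 to 3648000 (1520 kb), with lengths of 960, 560 and 288 kb. On chromosome 8 no post-LBC type 1 domain held more than 2. There, a series of 4 adjoining domains from 1 to 3792000, of 1120, 656, 864 and 1152 kb, each lay where the automatic LBC type 1 list had a pair of domains, and the manual list had 3 domains of 1776, 874 and 1142 kb. By the manual list, therefore, the domains of the places named so far were already undivided at the lampbrush stage. This did not hold at every such place. On chromosome 10 the domain from 5216001 to 6944000 held LBC domains of 480, 736 and 528 kb, and the manual list had domains of 1125 and 619 kb there. On chromosome 8 the domain from 28304001 to 29296000 held LBC domains of 480 and 512 kb, and the manual list had domains of 406 and 580 kb.

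Other domains passed through the transition with both ends in place. In type 1, 68 of 258 LBC domains (26.4%) had both ends within 80 kb of those of a single post-LBC domain, and 29 of these had the same start and end. In type 2, 28 of 239 did so (11.7%), and 1 was identical. Over all chromosomes the shares were close to these, with 24.7% and 10.1%. The type 1 domains with both ends kept had a median length of 608 kb (560 to 704 kb, n = 68), those with 1 end kept 496 kb (464 to 512 kb, n = 147) and those with neither kept 464 kb (384 to 608 kb, n = 43). Type 1 domains with both ends kept were thus longer than those with 1 end kept, with intervals that did not overlap. In type 2 no such order was seen, with 592, 544 and 608 kb for both, 1 and no ends kept.

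Only 8 of 258 LBC type 1 domains, 3.10% (1.35% to 6.02%), had both ends within 80 kb in all 3 other maps, against 2.48% on all other chromosomes. Of these, 4 were on chromosome 8, 3 on chromosome 10 and 1 on chromosome 6, and 7 of the 8 were in the manual list. The longest was the domain from 17136001 to 18368000 on chromosome 8, the longest LBC type 1 domain of that chromosome, with 1232 kb at both stages in type 1, and 1248 and then 1216 kb in type 2. It contains the longest stretch of these chromosomes that has no boundary in any of the 4 automatic lists, 1216 kb between 17136000 and 18352000. On chromosome 10 the adjoining domains from 3184001 to 3808000 and from 3808001 to 4560000, 624 and 752 kb long, had the same lengths in LBC type 1, post-LBC type 1 and post-LBC type 2, and lengths of 704 and 672 kb in LBC type 2. The domains in all 4 maps other than that of chromosome 8 were picked out after their values were seen.

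Runs of consecutive lost boundaries were counted along each chromosome, and whether lost boundaries cluster was not tested. The longest run of consecutive LBC type 1 boundaries that were lost had 5 members, on chromosome 7 between 4576000 and 6720000, and on the other chromosomes the longest runs had 4, 4, 4 and 2. In type 2 the longest runs had 8, 10, 7, 9 and 5 members on chromosomes 6 to 10, the run of 10 reaching from 448000 to 5872000 on chromosome 7. Conversely, chromosome 9 had a run of 9 kept type 1 boundaries, the longest of the 5 chromosomes. The share kept in type 1 was 62.2% (46.5% to 76.2%) within 2 Mb of the outermost boundaries, 54.8% (42.7% to 66.5%) from 2 to 6 Mb and 54.9% (46.9% to 62.6%) further inside. In type 2 the shares were 42.5%, 39.7% and 39.1%. The intervals overlapped in both types, and no dependence on the distance from the outermost listed boundary was resolved.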

How the data were processed

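Chicken oocyte nuclei were processed for Hi-C singly. The authors trimmed reads with cutadapt 4.1, aligned them to ASM2420605v2 with juicer 1.5.6, kept pairs mapped with a quality of 30 or more, stored unbalanced contacts with cooler 0.10.2, merged nuclei by group and called domains with lavaburst 0.2.0. The deposited lists give domain starts and ends in bp and no contact counts, so depth per boundary is unknown. Domain size depends on lavaburst's gamma, which the authors tuned for each chicken oocyte towards a mean domain of 1 Mb. The gamma of the merged maps is not given in the sources used here, so sizes of maps may differ by calling. The methods state a resolution of 20 kb, but the automatic coordinates lie on a 16 kb grid.

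Lists were compared with Python 3.11.15, numpy 2.4.6 and scipy 1.17.1, and plots drawn with matplotlib 3.10.9. Boundaries within 80 kb were matched, the tolerance the study uses, and the matching was tested on simulated lists. Domains are named if they are the longest, shortest, first or last of a list, hold the most LBC middles or border the longest boundary-free stretch, and boundaries if they have the same coordinate in all 4 lists. Members and rules were chosen with earlier results of these data known. Alternatives were tolerances of 20 and 160 kb, one-to-one matching, other treatments of ends and gaps, means, the manual list and leaving out each chromosome. The manual list has coordinates off the grid and 15 overlapping neighbours here. No genome of this build was used, so sequences and genes at boundaries were not analysed here.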

Additional observations from a re-analysis of the deposited data

How the results depend on the processing

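Of 101 alternatives to 13 results, 85 stayed within the interval of the result and 16 left it. This was the 95% interval for shares, and for ratios of medians the wider range from both median intervals. A reversal could be called only for the ratios of post-LBC to LBC median length, whose ranges excluded 1, and none was. All 55 alternatives that left out a chromosome stayed within the interval. They reuse most of the same domains and boundaries, so this is a weak check. The tolerance moved most shares. At 20 kb the share kept was 50% in type 1 and 23.2% in type 2, the share gained 22.5% and 73.5%, the share in all 4 maps 12.8%, and the type 2 borders inside post-LBC domains 78.2%. At 160 kb the type 2 share kept was 51.7%, the share gained 6.04% in type 1 and 38.9% in type 2, the share in all 4 maps 35.8% and the type 2 borders inside post-LBC domains 51.7%. With the manual list of LBC type 1, the share kept was 89.8%, the share gained 19.2%, the borders inside post-LBC type 1 domains 11.2%, the ratio of medians 1.00 and the share of manual boundaries in all 4 maps 36.6%. Leaving out the boundaries at gaps was chosen after seeing the data and kept the shares within their intervals, as did one-to-one matching and leaving out the outermost boundaries. The ratio of end to interior medians stayed within its range in every alternative, but with a chromosome left out it was between 0.984 and 1.27 in LBC type 1. No paired analysis was possible because only pooled maps were used, with no value per nucleus to pair by replicate number. With 10 end domains per map, and 22 to 36 boundaries per map on chromosome 10, small differences were not detectable.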
